A study of Homo sapiens with 9 samples.

Results

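HT-29 cells that had received 5 µM 5-aza-deoxycytidine (5-Aza) were compared with control HT-29 cells across all genes of the array. HT-29 is an established line from a human colon adenocarcinoma, grown here as monolayers, so every value describes 1 line. The comparison held 6 of the 9 arrays in the series, chosen by their titles: 3 cultures given the DMSO vehicle alone (0 µM 5-Aza) and 3 given 5 µM 5-Aza, both kept for 5 days. The other 3 cultures had received 10 µM. Each culture gave total RNA for 1 microarray, an Affymetrix U133 Plus. The study set these arrays beside sequencing of the same RNA, which was not used here. Each of 19775 genes was represented by its brightest probe set over the 9 arrays, and 11756 genes were tested. Values are log2 signals unless a fold is named.

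5-Aza is a cytidine analog that is phosphorylated inside the cell and built into DNA during replication. DNA methyltransferases become trapped on it, so the new strand is left with less methylation at CG pairs. Promoters rich in CG pairs that had been silenced by methylation can then be transcribed again. In colon cancer cells such silencing is known for germ cell genes and secreted Wnt antagonists, and demethylated repeats can form double-stranded RNA that is read as a virus.

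The signal floor was the median of all probe sets of an array, 5.07 to 5.20 on the vehicle arrays and 5.41 to 5.42 on the 5 µM arrays, and a gene was tested if it reached the floor on all 3 arrays of at least 1 dose. The median standard error of a log2 difference was 0.15, and 3 arrays per group limit the precision of every value. Of 12 colon epithelial markers on the array, 10 lay above the floor on all vehicle arrays and 9 on all 5 µM arrays, with CDX1 and CDX2 below it on all 6, and their summed level ran from 16.46 to 16.50 and from 15.85 to 16.00. The actin control, whose 3' minus 5' signal is larger where RNA is degraded, gave 1.91, 2.06 and 2.29 on the vehicle arrays and 2.49, 2.59 and 2.69 on the 5 µM arrays. The GAPDH control of the same kind gave 0.12, 0.20 and 0.25 on the vehicle arrays and 0.31, 0.31 and 0.34 on the 5 µM arrays. The groups did not overlap for either control, and an exact permutation test gave p = 0.1 for each, the smallest that 3 arrays against 3 allow. The part of these differences in the results below was not tested beyond a fit with the actin signal as a covariate, which called 555 genes higher in place of 1011.

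At 5 µM, 1011 of the 11756 tested genes (8.6%) were up-regulated and 155 (1.32%) were down-regulated, where a call needed a difference over 2-fold and a limma adjusted p no higher than 0.05. The 2 groups did not overlap for 6629 genes (56.4%), among them 1007 of the 1011 rises and all 155 falls. The median log2 difference of all tested genes was 0.04, and 86.7% of the called genes were higher at 5 µM. With all array medians set equal this median became -0.22 and the split became 721 higher and 443 lower. After quantile normalization it was 788 and 214. A further 2775 genes passed the adjusted p with 2-fold or less, 1369 of them higher and 1406 lower, so the surplus of rises was found among the larger differences.

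**Figure D1:**
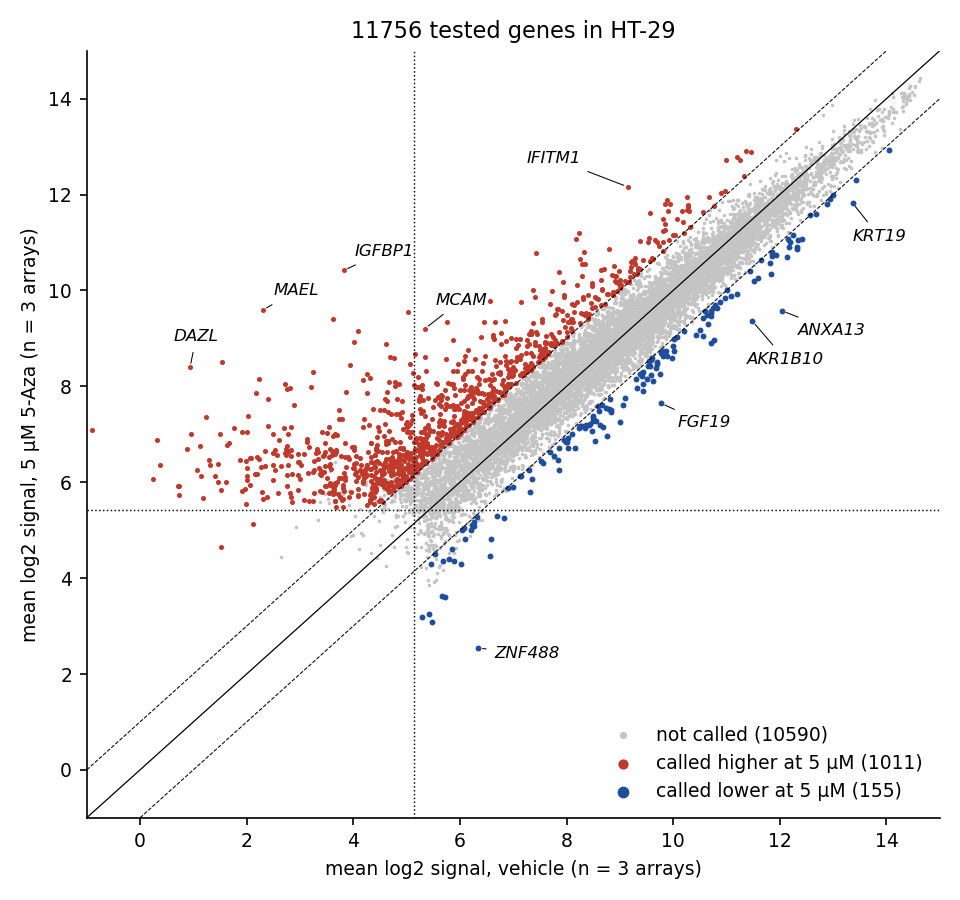
Mean log2 signal of each of the 11756 tested genes on the 3 vehicle arrays (x) and on the 3 arrays at 5 µM (y). Dotted lines mark the mean floors, the solid line equal signals and the dashed lines 2-fold differences; the called rises lie mostly at low vehicle signals and the called falls at high ones, with medians of 5.36 and 9.41.

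The share called differed with where a gene stood on the vehicle arrays. Among 10879 genes above the floor on all 3 vehicle arrays 491 were called higher, among 529 above it on 1 or 2 arrays 207, and among 348 below it on all 3 arrays 313. Genes below the floor on any vehicle array entered the test only through a dose at which they were bright. Both of their shares are therefore shaped by the filter and support nothing. Of the 10564 genes above the floor on all 6 arrays, called fully measured here, 491 (4.65%) were higher and 128 (1.21%) were lower. Counts for gene groups are read against 8.6% over tested members and against 4.65% over fully measured members. Of these rises 63 were over 4-fold and 5 over 8-fold, against 3 and 0 of the falls.

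DNMT1, the maintenance methyltransferase and main target of 5-Aza, was not called. Its signals were 8.49, 8.62 and 8.70 on the vehicle arrays and 8.94, 8.93 and 8.77 on the 5 µM arrays. The log2 difference of 0.27 ± 0.10 (SE) had a limma adjusted p of 0.0649. UHRF1, which guides DNMT1 to hemimethylated DNA, rose 2.48-fold, log2 difference 1.31 ± 0.09, and DNMT3B, a methyltransferase that sets new marks, rose 2.26-fold, log2 difference 1.18 ± 0.21. These were the only 2 of 5 tested writers to be called, and DNMT3B was at 0.91 on the log2 scale, under 2-fold, with equal array medians. Of 7 tested readers of the mark limma called none, nor did the methods' t-test, and 1 had an unadjusted p under 0.05. MBD2 stood at -0.38 and ZBTB33 at -0.27 on the log2 scale. GADD45B, a stress gene linked to demethylation, rose 2.93-fold, log2 difference 1.55 ± 0.30.

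Genes that move or process the drug changed in part. SLC28A3, a concentrative nucleoside transporter, had signals of 9.04, 9.28 and 10.01 on the vehicle arrays and 7.97, 7.78 and 7.96 on the 5 µM arrays. It fell 2.91-fold. CDA, the cytidine deaminase that inactivates 5-Aza, rose 2.68-fold, log2 difference 1.42 ± 0.32, and RRM2, the ribonucleotide reductase subunit that makes the competing nucleotides, rose 2.3-fold, log2 difference 1.20 ± 0.20. None of the 3 tested activating kinase genes was called by limma or by the methods' t-test, and 1 had an unadjusted p under 0.05.

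SPARC, a matrix protein gene, was chosen by the study for its promoter methylation. It lay below the floor on all 9 arrays and was not tested, with signals of 1.72, 2.59 and 3.61 on the vehicle arrays and 1.32, 1.54 and 3.59 at 5 µM. In the paper, RNA-Seq and qRT-PCR of the same RNA detected SPARC at 5 µM and not in controls, while its array data showed no rise. GAPDH, a common reference gene, gave 13.80, 13.82 and 13.71 on the vehicle arrays and 13.31, 13.49 and 13.55 on the 5 µM arrays, a difference of -0.33 ± 0.12 (limma adjusted p = 0.0738). After quantile normalization the GAPDH difference was 0.02. A list of genes assayed by PCR was picked by the study on these samples, so it is no independent evidence of direction. Of its 11 tested members, 4 were called higher and 2 lower. IL1R1, the interleukin-1 receptor, rose 4.51-fold, CXCL8, a neutrophil chemokine, rose 3.67-fold, TGM2, a transglutaminase, fell 2.81-fold and ALDH3A1, an aldehyde dehydrogenase, fell 2.85-fold. Without 5 µM replicate 1 only 2 rises remained called, since MAPK10 was then at 0.93 and IRF7 at 0.99 on the log2 scale, and IRF7 was also just under 2-fold without 0 µM replicate 2 or 3 or 5 µM replicate 2 (0.99 each). TAF11 (0.70) and GGT7 (0.78) were positive and LIPE (-0.80) and EFNB1 (-0.33) negative without being called. Of the called members, the paper's qRT-PCR found IL1R1, CXCL8, MAPK10 and ALDH3A1 significantly different in the direction seen here. It found no significant difference for TGM2 and IRF7, and its fold changes for both pointed the opposite way to the calls here.

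The largest differences were genes that left the background. For these a fold is a bound, with each signal below the floor raised to it. A gene with 1 or 2 vehicle arrays below the floor has a plain fold of the deposited signals, which rests in part on background values. Named genes of this kind include GUCA2A, HSPA2, SERPINI1, PRPH, ERO1B, REG4, MUC1 and CCNE2. IGFBP1, a secreted binder of insulin-like growth factors, gave 3.67, 4.19 and 3.61 on the vehicle arrays and 10.43, 10.29 and 10.54 on the 5 µM arrays. It was at least 38.7-fold higher (limma adjusted p = 1.85e-07) and spans chr7:45888488-45893660 in GRCh38.p14. MAEL, a germ cell factor of the piRNA pathway that restrains transposons, gave 3.61, 0.93 and 2.38 on the vehicle arrays and 9.44, 9.67 and 9.67 on the 5 µM arrays, at least 21.8-fold higher. CTHRC1, a secreted matrix glycoprotein, gave 4.22, 3.48 and 3.15 on the vehicle arrays and 9.42, 9.48 and 9.34 on the 5 µM arrays, at least 19.3-fold higher. These 3 genes were picked among rises with no overlap between the groups. Their vehicle values, all below the floor, have no order of their own.

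SELENOM, a selenoprotein of the endoplasmic reticulum, was at least 16.1-fold higher, RBPMS2, an RNA-binding protein of smooth muscle, at least 13.8-fold, and DCAF4L1 at least 11.1-fold. SYCP3, part of the meiotic chromosome axis, at least 11.0-fold, PEG10, an imprinted gene derived from a retrotransposon, at least 10.3-fold, HERC5, the ligase for the ubiquitin-like ISG15, at least 9.87-fold, and DAZL, a germ cell RNA-binding protein, at least 9.5-fold followed. GCG, which encodes glucagon and GLP-1, was at least 8.85-fold higher, CXCL17, a mucosal chemokine, at least 8.62-fold, COXFA4L3 at least 8.1-fold, BEX2 at least 8.07-fold and ADTRP at least 7.98-fold.

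**Figure D2:**
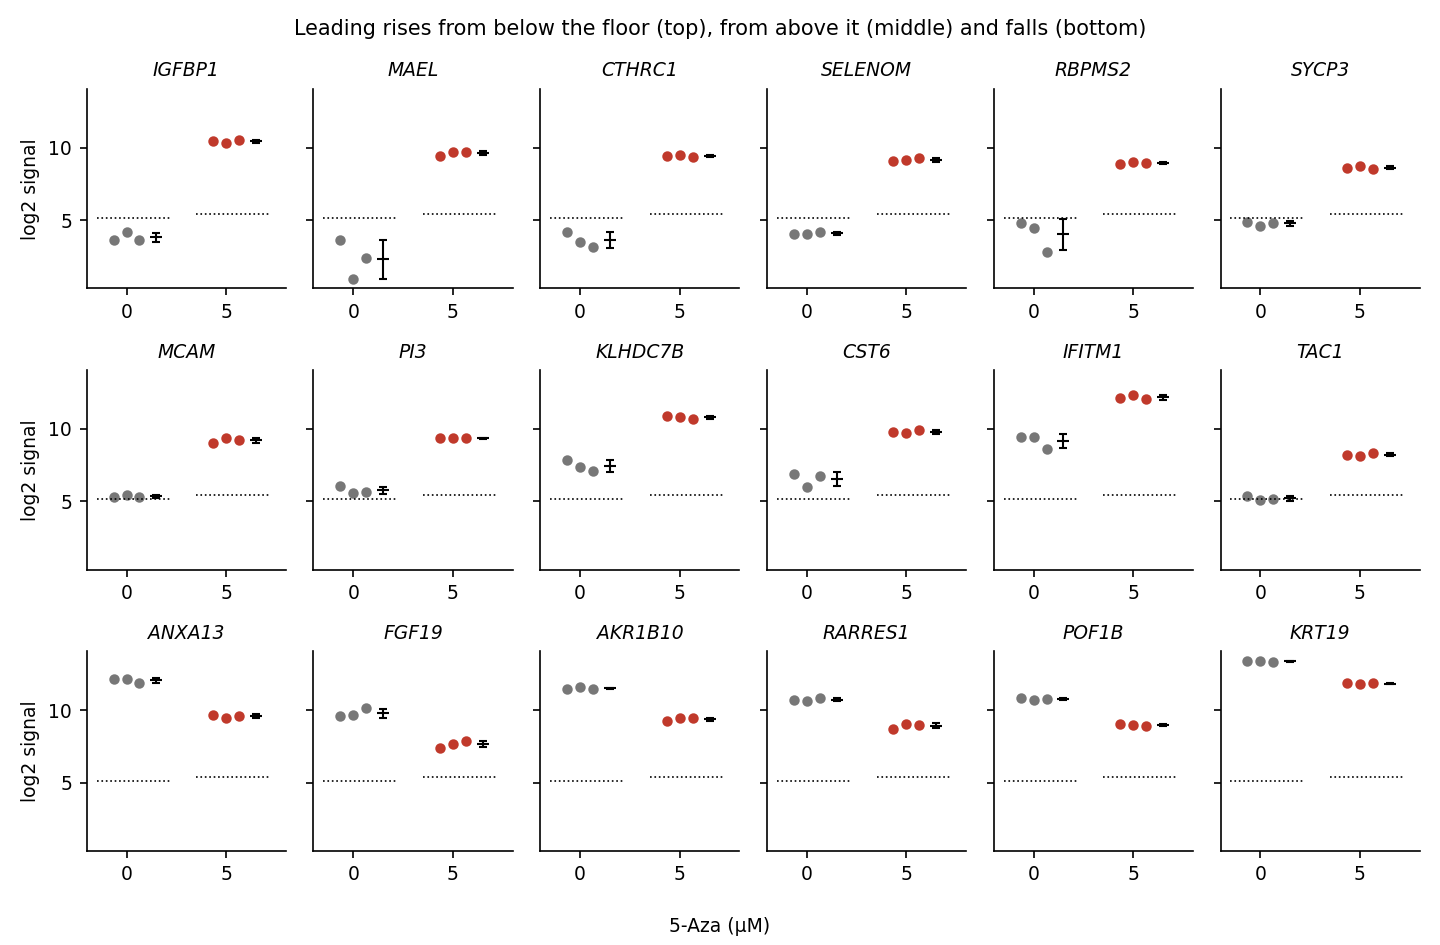
Log2 signals of 18 genes on the 3 vehicle arrays and the 3 arrays at 5 µM, with dots for arrays, bars for mean ± SD and a dotted line for the floor. The top row rises from below the floor, the middle row from above it and the bottom row falls. All 18 were picked among called genes with no overlap between the groups.

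The RefSeq promoter window, 250 bases before to 50 after the transcription start (GRCh38.p14), is shown for the 3 largest of these rises that the promoter table held: MAEL, RBPMS2 and SYCP3, with CG pairs in capitals because CG pairs are what the drug leaves unmethylated. MAEL has a pair of listed starts, and the window of the first overlaps that of ILDR2 on the other strand, so both are given: the first at chr1:166975332-166975631, forward strand, with 60 CG pairs, and the second at chr1:166989030-166989329, forward strand, with 27. The first of 3 listed RBPMS2 starts lies at chr15:64775540-64775839, reverse strand, with 50, and SYCP3 at chr12:101739413-101739712, reverse strand, with 24. Methylation itself was not measured here.
MAEL first start: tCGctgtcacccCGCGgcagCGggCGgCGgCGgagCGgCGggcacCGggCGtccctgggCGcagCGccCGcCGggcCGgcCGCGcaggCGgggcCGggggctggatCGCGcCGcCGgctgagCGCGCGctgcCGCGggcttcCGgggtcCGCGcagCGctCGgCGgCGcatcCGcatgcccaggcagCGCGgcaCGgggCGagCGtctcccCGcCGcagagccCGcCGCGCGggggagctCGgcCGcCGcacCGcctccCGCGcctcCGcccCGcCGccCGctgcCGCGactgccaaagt
MAEL second start: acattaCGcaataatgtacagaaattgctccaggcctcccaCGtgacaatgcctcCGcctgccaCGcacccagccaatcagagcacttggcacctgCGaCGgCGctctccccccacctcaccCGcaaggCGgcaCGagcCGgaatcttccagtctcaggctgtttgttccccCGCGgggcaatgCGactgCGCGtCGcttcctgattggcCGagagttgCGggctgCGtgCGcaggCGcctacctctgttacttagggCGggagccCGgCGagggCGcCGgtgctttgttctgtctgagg
RBPMS2: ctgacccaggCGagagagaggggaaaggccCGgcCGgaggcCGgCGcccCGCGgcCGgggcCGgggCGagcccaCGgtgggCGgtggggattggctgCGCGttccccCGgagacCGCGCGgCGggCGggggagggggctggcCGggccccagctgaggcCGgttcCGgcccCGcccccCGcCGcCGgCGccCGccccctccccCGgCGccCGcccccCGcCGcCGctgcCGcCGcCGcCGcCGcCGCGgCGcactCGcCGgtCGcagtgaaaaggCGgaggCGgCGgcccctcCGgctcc
SYCP3: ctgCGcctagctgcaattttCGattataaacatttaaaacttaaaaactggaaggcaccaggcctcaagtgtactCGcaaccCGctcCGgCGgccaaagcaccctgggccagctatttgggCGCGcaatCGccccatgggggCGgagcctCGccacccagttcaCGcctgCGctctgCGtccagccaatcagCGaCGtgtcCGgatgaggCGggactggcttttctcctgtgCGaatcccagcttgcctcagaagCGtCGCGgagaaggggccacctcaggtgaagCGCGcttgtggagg

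In all, 305 genes were called higher with all 3 vehicle arrays below the floor and all 3 arrays at 5 µM above it. Their median bound was 2.28-fold, 198 were bounded over 2-fold, 40 over 4-fold and 14 over 8-fold. Only 20 genes went the other way. At 10 µM, 113 of the 305 lay above the floor on all 3 arrays, 108 on 1 or 2 and 84 on none, and no test of that difference between doses was made.

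**Figure D3:**
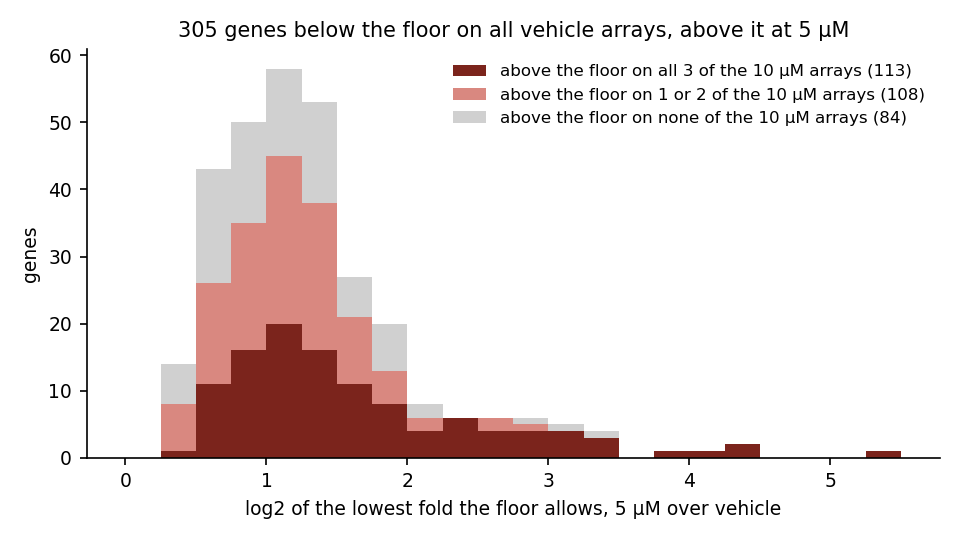
Number of genes by the lower bound of their log2 fold difference, for the 305 genes that went from 3 vehicle arrays below the floor to 3 arrays at 5 µM above it. Colours show on how many arrays at 10 µM the gene was also above the floor, with 113 on all 3, 108 on 1 or 2 and 84 on none.

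Germ cell genes, which are normally read only in testis or ovary, were called higher for 15 of 26 tested members, with a median of 1.16 against 0.04 for all tested genes. Of these members 10 were tested only through their signal at 5 µM, and among the 13 above the floor on all 6 arrays 5 were higher. A further 62 of the 88 germ cell genes on the array were not tested. Of the piRNA pathway 7 of 10 tested members rose, and 2 of the 4 fully measured. TDRD9, a helicase of that pathway, gave 1.81, 3.32 and 2.07 on the vehicle arrays and 7.48, 6.41 and 7.63 on the 5 µM arrays, at least 4.08-fold higher. GTSF1, a zinc finger partner of PIWI proteins, was at least 2.31-fold higher and MYBL1, the transcription factor that drives piRNA precursors, at least 2.86-fold. PIWIL2, a PIWI protein, was at least 1.91-fold higher. TDRD6 and TDRKH, Tudor proteins of germ granules, were above the floor in both groups and rose 3.77-fold and 2.54-fold.

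Of the meiotic chromosome axis, HORMAD1 was at least 3.35-fold higher and SYCP2 rose 2.86-fold, log2 difference 1.52 ± 0.22. DMRTB1, a regulator of spermatogonia, was at least 3.95-fold higher. The X-linked MAGE family, cancer-testis antigens, had 4 of 8 tested members called, 3 of which were tested only through 5 µM, and 1 of 5 fully measured. A further 15 of the 23 members on the array were not tested. MAGEA4 gave 1.68, 0.58 and 1.43 on the vehicle arrays and 7.31, 7.51 and 7.28 on the 5 µM arrays, at least 4.66-fold higher, MAGEB2 was at least 2.64-fold and MAGEA1 at least 2.07-fold higher, and MAGEA6 rose 2.34-fold from above the floor. MAGEA probe sets can share targets with each other, so the members are not fully separate, and 2 of the 4 calls remained without probe sets marked as shared.

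Imprinted genes, read from 1 parental copy, rose in 6 of 17 tested members (35.3%). Of the 6, 4 came from below the floor, 3 members were tested only through 5 µM, and 2 of the 12 fully measured were higher. NNAT was at least 3.01-fold higher, SGCE, the neighbour of PEG10, at least 1.94-fold, and PLAGL1, a zinc finger growth regulator, at least 1.52-fold. CDKN1C, an inhibitor of cyclin-dependent kinases, gave 7.07, 6.58 and 6.88 on the vehicle arrays and 8.56, 8.62 and 8.74 on the 5 µM arrays, a rise of 3.48-fold, and INPP5F rose 2.84-fold. A list of genes with promoters often methylated in colorectal tumours had 18 tested members, of which 6 rose and 1 fell. Of these members 4 were tested only through 5 µM, and 2 of the 12 fully measured were higher. The list's median was 0.15, and -0.09 after quantile normalization. HLTF, a DNA helicase, was at least 3.54-fold higher, TIMP3, an inhibitor of matrix proteases, at least 1.93-fold, and VIM, vimentin, at least 1.55-fold. SPART fell to below the floor, by at least 1.05-fold. A further 34 of the 52 members on the array were not tested, as neither dose lifted them past the floor on all of its arrays.

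MCAM, a cell adhesion receptor, had the largest rise among genes above the floor on all 6 arrays. Its signals were 5.30, 5.46 and 5.28 on the vehicle arrays and 9.04, 9.37 and 9.20 on the 5 µM arrays, a 14.5-fold rise (limma adjusted p = 9.75e-07). PI3, the elastase inhibitor elafin, gave 6.05, 5.61 and 5.64 on the vehicle arrays and 9.33, 9.34 and 9.36 on the 5 µM arrays, 11.9-fold higher. KLHDC7B, a kelch domain protein, rose 10.2-fold and CST6, a cystatin that blocks cysteine proteases, 9.32-fold. Next in size was IFITM1, given below with the interferon genes. TAC1, the precursor of substance P (7.92-fold), INHBE, an inhibin beta chain (7.85-fold), UNC5B-AS1, an antisense RNA (7.47-fold), and SFTA2 (7.42-fold) followed. CSTA, a second cystatin, rose 6.26-fold, SLC51B, a bile acid exporter subunit, 6.25-fold, AMN1 6.04-fold, and ERFE, the hormone erythroferrone, 5.83-fold. COL1A1 and DKK1, given below, also belong to these 15 largest rises.

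Genes induced by interferon formed the group with the most calls. Of 94 tested members 39 were higher and 1 was lower, and of the 53 tested antiviral effectors 29 were higher, with a median of 1.13. None of the effectors was lower by limma or the methods' t-test, and 2 with a negative difference had an unadjusted p under 0.05. Among the 49 effectors above the floor on all 6 arrays 27 were higher, beside 4.65% of all such genes. IFITM1, a membrane protein that blocks virus entry, gave 9.41, 9.44 and 8.59 on the vehicle arrays and 12.13, 12.33 and 12.03 on the 5 µM arrays, an 8.09-fold rise (limma adjusted p = 8.33e-05), and IFITM3 rose 3.64-fold. RSAD2, viperin, which makes a chain-terminating nucleotide, rose 5.77-fold. MX2 and MX1, GTPases that trap viral particles, rose, with MX2 4.75-fold higher and MX1 going from a mean of 9.88 to 11.88.

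XAF1, which binds the apoptosis inhibitor XIAP, rose 4.21-fold, IFIT2, IFIT1 and IFIT3, which bind viral RNA ends, 3.43-fold, 3.31-fold and 3.23-fold, and IFI44L and IFI44 2.85-fold and 2.69-fold. RTP4, which left the background, was at least 3.64-fold higher. HERC5 gave 4.54, 4.03 and 3.26 on the vehicle arrays and 8.52, 8.54 and 8.28 on the 5 µM arrays, and HERC6, its neighbour, rose 2.41-fold. Of 18 sensors 6 were higher, all among the 17 fully measured, led by the 2-5A synthetases OAS2 (4.83-fold), OAS3 (3.88-fold) and OAS1 (2.45-fold), which activate an RNase on double-stranded RNA. DHX58, a regulator of the RIG-I sensors, rose 2.54-fold.

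Of 7 tested interferon ligands and receptors, which start the response, 1 rose and 1 fell, with a median of -0.02. A further 6 of the 13 on the array were not tested, among them the ligands IFNA1, IFNB1, IFNG, IFNL1 and IFNL2. Of 16 signalling proteins and transcription factors 3 rose (18.8%), of which 1 remained without 5 µM replicate 1 or without 5 µM replicate 2. USP18, the feedback inhibitor of the interferon receptor, gave 8.26, 7.96 and 7.54 on the vehicle arrays and 9.72, 9.43 and 9.54 on the 5 µM arrays, a rise of 3.13-fold. All guanylate-binding protein genes tested, 3 of them, missed the call in limma and in the methods' t-test, although 2 had an unadjusted p under 0.05, with GBP3 at -0.45 and GBP1 at 1.01.

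The HERC5 promoter (chr4:88456869-88457168, forward strand, RefSeq, GRCh38.p14) is shown because HERC5 was the largest called rise of the interferon genes. Capitals mark matches to GAAA, any 2 bases and GAAA again on either strand, a short form of the element bound by interferon-activated factors, with 3 matches that partly overlap. The same letters occur in 3.65% of 27305 RefSeq promoters. A share over the interferon genes is void, since 72 of the 94 had a promoter in the table used here.
HERC5: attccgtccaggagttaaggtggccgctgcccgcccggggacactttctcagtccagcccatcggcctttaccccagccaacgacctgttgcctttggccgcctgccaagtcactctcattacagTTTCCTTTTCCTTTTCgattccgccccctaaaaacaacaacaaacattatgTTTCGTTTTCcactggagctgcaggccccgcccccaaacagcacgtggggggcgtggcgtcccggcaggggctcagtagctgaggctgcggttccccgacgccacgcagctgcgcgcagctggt

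Class I antigen presentation shows peptides from inside the cell. HLA-B, HLA-C, HLA-F and HLA-G, chains that display peptides to T cells, were higher by 2.98-fold, 2.7-fold, 2.69-fold and 2.68-fold, which made 4 of 7 tested chains, all fully measured. HLA-B gave 11.22, 11.45 and 10.94 on the vehicle arrays and 12.74, 12.83 and 12.77 on the 5 µM arrays. Their probe sets can read each other's transcripts, and 2 of the 4 calls remained without shared probe sets. Of the genes for peptide supply and loading 4 of 14 tested were higher (28.6%), and 3 of the 12 fully measured. TAP1 and TAP2, the peptide transporter, rose 3.47-fold and 2.33-fold, PSMB9, an immunoproteasome subunit, 3.34-fold, and NLRC5, the activator of class I genes, 7.15-fold from a signal near the floor.

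Chemokines were called higher for 7 of 9 tested genes, with a median of 1.21, and for 4 with equal array medians. Of the 5 fully measured chemokine genes 3 were higher. CCL20, which attracts cells bearing CCR6, gave 5.98, 5.30 and 3.79 on the vehicle arrays and 9.25, 9.78 and 9.63 on the 5 µM arrays, a rise of 23.1-fold (limma adjusted p = 0.000251) with 1 vehicle array below the floor. CXCL8 gave 6.74, 6.01 and 6.23 on the vehicle arrays and 8.11, 8.06 and 8.44 on the 5 µM arrays, CXCL3 rose 3.16-fold and CXCL2 2.31-fold, all neutrophil attractants. CCL22, a ligand for regulatory T cells, was at least 1.75-fold higher. Of 13 cytokine genes 3 rose, IL23A by at least 1.74-fold, IL1B by 3.16-fold and IL11 by 2.92-fold, none of them above the floor on all 6 arrays.

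Of 23 tested receptors of these signals 6 were higher, and 2 of the 19 fully measured. IL1R1 gave 5.30, 5.45 and 5.16 on the vehicle arrays and 7.33, 7.55 and 7.55 on the 5 µM arrays and had the smallest adjusted p among them (limma, 6.81e-06). TNFRSF11B, a decoy receptor, rose 5.31-fold, FAS, a death receptor, 3.1-fold and IL17RB 2.29-fold. Among NF-kB proteins, targets and feedback genes 5 of 23 rose, all among the 22 fully measured, including TNFAIP3, an inhibitor of NF-kB (3.00-fold), PTGS2, the inducible prostaglandin synthase (2.41-fold), and CFB, complement factor B (2.44-fold).

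Promoters of CCL20 (chr2:227813592-227813891, forward strand), the largest called rise of the inflammatory genes, and of CXCL3 (chr4:74038640-74038939, reverse strand), chosen after its values were seen because it holds a match, are given from RefSeq (GRCh38.p14). Capitals mark GGGA, any base and TTTCC in a row on either strand, a form of the NF-kB site. CCL20 has none and 3 CG pairs, which says only that these letters are not in this window. Over 55 of the 68 inflammatory genes with a promoter, 9 held a match (16.4%), beside 0.58% of all promoters. Of the 21 called higher, 18 had a promoter and 5 of these held a match. Genes absent from the promoter table are not covered by these counts.
CCL20: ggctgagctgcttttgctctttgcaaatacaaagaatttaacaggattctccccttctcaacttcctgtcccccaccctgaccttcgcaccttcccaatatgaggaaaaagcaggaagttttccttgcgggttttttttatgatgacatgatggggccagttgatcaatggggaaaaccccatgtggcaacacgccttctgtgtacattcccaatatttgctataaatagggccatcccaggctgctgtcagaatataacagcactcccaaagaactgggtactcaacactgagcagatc
CXCL3: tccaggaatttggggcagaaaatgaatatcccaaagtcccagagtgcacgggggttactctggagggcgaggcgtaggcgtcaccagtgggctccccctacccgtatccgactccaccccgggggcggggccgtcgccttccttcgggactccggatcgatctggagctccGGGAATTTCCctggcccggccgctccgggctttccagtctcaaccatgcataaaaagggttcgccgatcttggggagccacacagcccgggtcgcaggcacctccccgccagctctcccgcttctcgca

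Genes of the G1/S transition were higher for 15 of 33 tested members, with a median of 0.87 on the log2 scale, and for 8 of the 26 above the floor on all 6 arrays. CCNE2, a cyclin that starts S phase, gave 5.02, 5.25 and 5.57 on the vehicle arrays and 7.94, 7.98 and 7.92 on the 5 µM arrays, a rise of 6.34-fold (limma adjusted p = 6.81e-06). The CCNE2 value is a plain fold with vehicle signal partly below the floor. CDC45, part of the replicative helicase, rose 5.22-fold, ORC6, of the origin recognition complex, 4.07-fold, and E2F7, a repressor of the E2F family, 3.71-fold. RBL1, the pocket protein p107, was at least 2.02-fold higher. CDC25A, a phosphatase that activates cyclin-dependent kinases, rose 3.38-fold, CDT1, a licensing factor, 2.71-fold and DTL, which directs its destruction, 2.67-fold.

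At the replication fork 7 of 29 tested genes rose, and 6 of the 26 fully measured. ASF1B, a histone chaperone, rose 3.13-fold, LIG1, the DNA ligase of the lagging strand, 2.79-fold, TIMELESS, a fork protection protein, 2.73-fold, and FEN1, the flap nuclease, 2.6-fold. Mitotic genes gave 2 calls among 39 (5.13%, under the 8.6% of all tested genes), CDK1 and KIF23, and that count ran from 0 without 0 µM replicate 3 to 5 without 0 µM replicate 1. Both calls were among the 37 fully measured members, beside 4.65% of all such genes. The median of the mitotic genes was 0.34.

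Of 30 tested kinase inhibitors and p53 targets, which slow the cycle, 5 were higher (16.7%), and 3 of the 25 fully measured. A further 9 had a negative difference, and the list's median of 0.17 was -0.10 with equal array medians. TP53INP1, a p53 target, gave 6.50, 6.83 and 6.95 on the vehicle arrays and 9.29, 9.08 and 8.99 on the 5 µM arrays, a rise of 5.12-fold. CDKN1A, the inhibitor p21, gave 8.52, 8.24 and 8.19 on the vehicle arrays and 9.80, 9.80 and 9.97 on the 5 µM arrays, a rise of 2.91-fold. The groups did not overlap for either gene.

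Of the DNA damage genes, homologous recombination and Fanconi anemia members rose in 8 of 22, and in 6 of the 20 fully measured, with BRCA1 at 2.45-fold, BARD1, its partner, at 2.37-fold, and BRIP1, a helicase, at 2.37-fold. That count was 2 after quantile normalization or with equal array medians and 5 without 0 µM replicate 2. None of 15 tested sensors and checkpoint genes was called by limma or by the methods' t-test, although 12 had a positive difference and 9 an unadjusted p under 0.05, with CHEK2 at 0.71. The repair genes for mismatches, bases and crosslinks gave no call among 15 by either test, and 7 had an unadjusted p under 0.05. Of 33 apoptosis genes tested 1 was called (3.03%), BIK, a killer protein of the BCL2 family, which rose 2.62-fold.

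The promoters of CDC45 (chr22:19479670-19479969, forward strand), the largest called cell cycle rise that the table held, and of RBL1 (chr20:37095948-37096247, reverse strand), chosen after its values were seen because it holds a match, are shown from RefSeq (GRCh38.p14). Capitals mark TTTGGCGC or TTTCCCGC on either strand, forms of the E2F site. CDC45 has none in this window, which is the first of 3 listed starts. Of 131 tested cell cycle genes 112 had a promoter and 27 of these held a match (24.1%), beside 2.31% of all promoters. Of the 29 called higher, 25 had a promoter and 9 of these held a match. Genes absent from the promoter table are not covered.
CDC45: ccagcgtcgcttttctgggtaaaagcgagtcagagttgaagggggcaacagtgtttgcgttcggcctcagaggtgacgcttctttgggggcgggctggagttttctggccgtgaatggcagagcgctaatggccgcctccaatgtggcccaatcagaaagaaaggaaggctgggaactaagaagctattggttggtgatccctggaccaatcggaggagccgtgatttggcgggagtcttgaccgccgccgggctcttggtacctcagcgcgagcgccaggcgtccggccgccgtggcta
RBL1: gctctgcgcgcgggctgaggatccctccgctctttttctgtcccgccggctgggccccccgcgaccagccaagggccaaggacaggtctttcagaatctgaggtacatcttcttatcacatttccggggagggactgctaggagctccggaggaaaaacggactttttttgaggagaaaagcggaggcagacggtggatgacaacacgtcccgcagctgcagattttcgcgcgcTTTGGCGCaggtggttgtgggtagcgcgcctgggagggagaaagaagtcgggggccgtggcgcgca

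Lists of differentiated intestinal cells covered secretory and absorptive types. Goblet cells secrete mucus, Paneth cells antimicrobial peptides and enteroendocrine cells hormones. In RNA of whole cultures, a change in the number of cells of a type and a change in RNA per cell cannot be told apart. Of 20 tested goblet genes 9 were higher, 4 of them among the 15 above the floor on all 6 arrays. TFF1, a trefoil peptide, gave 7.31, 7.28 and 7.66 on the vehicle arrays and 9.93, 9.77 and 9.89 on the 5 µM arrays, a rise of 5.46-fold (limma adjusted p = 7.42e-06). TFF2 rose 3.84-fold, REG4, a secreted lectin, 6.68-fold, and FCGBP, a mucus protein, 3.08-fold. SPINK4, a protease inhibitor of goblet cells, was at least 6.64-fold higher, ZG16, a mucus lectin, at least 2.55-fold, and CLCA1, a mucus metalloprotease, at least 2.00-fold.

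Paneth genes rose in 3 of 6 tested members, and in 2 of the 5 fully measured: DEFA6, a defensin, by at least 2.99-fold, PRSS2, a trypsinogen, by 2.82-fold and ANG, angiogenin, by 2.1-fold. The trypsinogen genes are close copies, so PRSS2 is uncertain as to member. Enteroendocrine genes were higher in 9 of 14 and lower in 1, but 5 of the rises came from below the floor, 4 members were tested only through 5 µM, and 1 of the 4 fully measured was higher. With a floor at the 60th percentile 4 rises remained. GCG gave 2.87, 3.99 and 2.85 on the vehicle arrays and 8.20, 8.33 and 8.35 on the 5 µM arrays. CCK, cholecystokinin, rose from a mean of 5.17 to 7.98, GAST, gastrin, by at least 2.41-fold, and NTS, neurotensin, by at least 1.44-fold. NKX2-2, a hormone cell transcription factor, was at least 1.7-fold higher and INSM1, another, rose 2.53-fold, whereas PAX4 gave 6.71, 5.90 and 7.16 on the vehicle arrays and 4.52, 4.85 and 5.05 on the 5 µM arrays and fell to below the floor, by at least 2.26-fold.

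Of 19 tested genes of absorptive cell structure and transport 8 rose, and 5 of the 14 fully measured. GUCA2A and GUCA2B, the guanylins that set salt secretion, were higher by 12.1-fold and by at least 2.9-fold. The GUCA2A value is a plain fold with vehicle signal partly below the floor, so the 2 values are not comparable. SLC26A2, a sulfate carrier, gave 6.79, 6.86 and 7.21 on the vehicle arrays and 8.94, 8.96 and 9.11 on the 5 µM arrays, a rise of 4.15-fold, and CDHR2, a cadherin of the brush border, rose 3.21-fold. CEACAM5 and CEACAM7, adhesion molecules of the surface epithelium, rose 3.19-fold and 3.11-fold. ANPEP, a brush border peptidase, was at least 3.75-fold higher, as the only call among 4 tested brush border enzymes. None of the 3 fully measured was called higher, and 14 of the 18 on the array were not tested. Of 8 tested genes of lipid and bile acid handling 2 were higher and 2 lower. FGF19, the gut hormone that restrains bile acid synthesis, and FGFR4, its receptor, fell 4.37-fold and 2.7-fold, while SLC51B rose.

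The transcription factors that build the intestine had a median of -0.36 over 20 tested members, all above the floor on all 6 arrays, against 0.04 for all tested genes. PROX1, a regulator also linked to colon cancer, gave 6.95, 6.79 and 6.99 on the vehicle arrays and 8.12, 8.37 and 8.58 on the 5 µM arrays and rose 2.73-fold, and HNF4G, a nuclear receptor of absorptive cells, gave 9.74, 9.61 and 9.65 on the vehicle arrays and 8.44, 8.45 and 8.26 on the 5 µM arrays and fell 2.44-fold. No other member was called. KRT19, a keratin of simple epithelium, fell 2.9-fold. GPA33, a colon surface antigen, was called lower in the full set, at 5.96, 5.99 and 6.13 on the vehicle arrays and 2.89, 5.24 and 4.74 on the 5 µM arrays, but its limma adjusted p was 0.070, 0.072 and 0.074 without 0 µM replicate 1, 2 and 3.

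**Figure D4:**
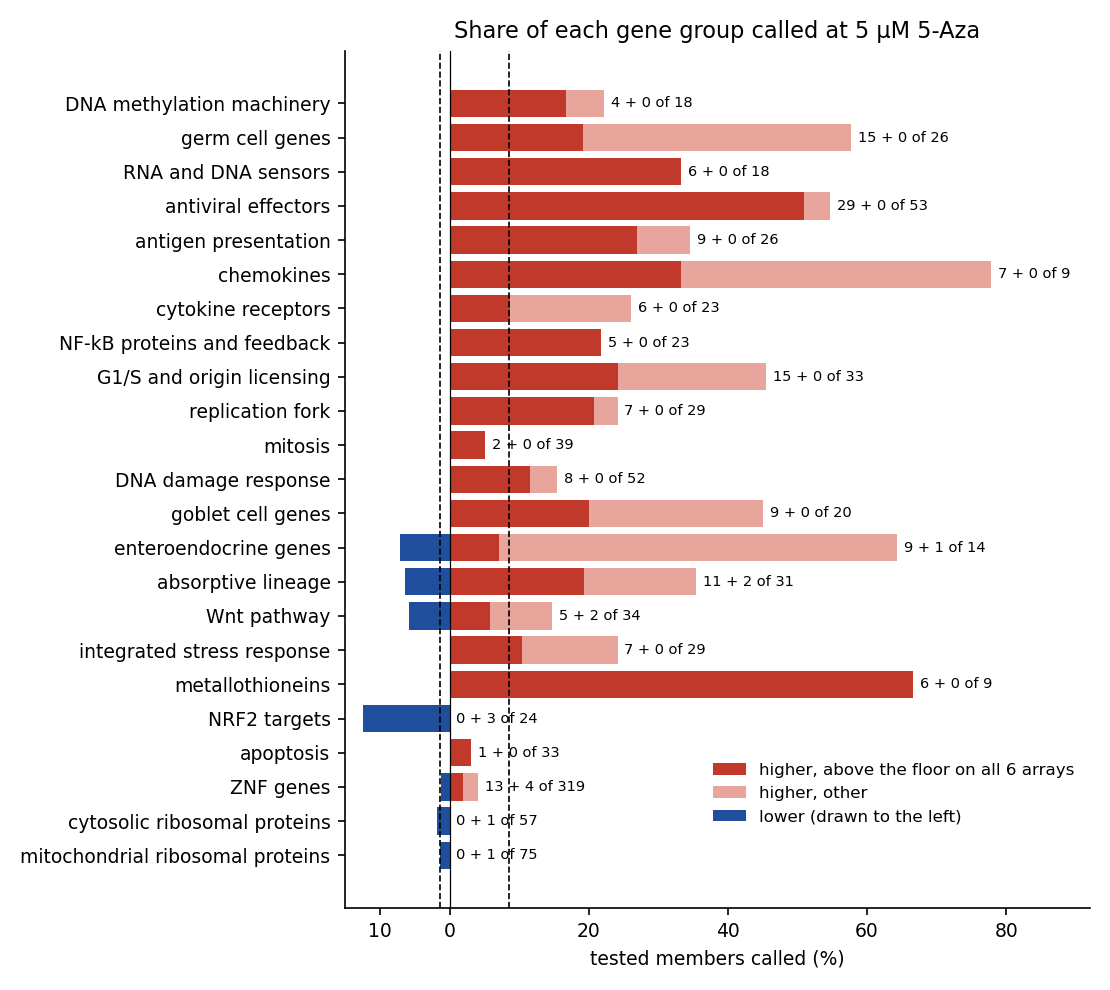
Percent of tested members of each gene group that were called higher (right, dark for members above the floor on all 6 arrays and light for others) or lower (left) at 5 µM. Dashed lines mark 8.6% and 1.32%, the shares among all tested genes; antiviral effectors, with 29 of 53 called, are mostly dark.

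Among signalling genes, the list of Wnt antagonists, which included the receptor KREMEN1, stood at 3 of 3 tested members higher. A further 11 on the array were not tested. Of these, SFRP1, SFRP2, SFRP4, SFRP5 and WIF1 lay below the floor on all vehicle and 5 µM arrays. DKK1, which blocks the Wnt co-receptor, gave 7.21, 7.04 and 7.18 on the vehicle arrays and 9.79, 9.53 and 9.97 on the 5 µM arrays, a rise of 6.15-fold. KREMEN1, the receptor for DKK1, rose 3.62-fold and FRZB, a Wnt-binding decoy, was at least 2.53-fold higher. Of 15 Wnt targets and stem cell genes 1 rose (6.67%) and 2 fell, with a median of -0.12. MYC, a growth regulator and Wnt target, gave 11.97, 12.14 and 11.71 on the vehicle arrays and 10.71, 10.68 and 10.84 on the 5 µM arrays, a fall of 2.29-fold (limma adjusted p = 0.000234).

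Of 18 tested TGF-beta and BMP ligands and receptors 5 were higher and 1 lower, and of the 15 fully measured 2 were higher. INHBE gave 8.21, 8.34 and 8.14 on the vehicle arrays and 11.10, 11.30 and 11.21 on the 5 µM arrays, the largest rise among TGF-beta and BMP ligands, of which BMP8B rose 2.89-fold and TGFB3 2.72-fold. BMPR1B, a BMP receptor, was at least 2.14-fold higher. BMP4 fell 2.17-fold and ID1, a direct target of BMP signals, gave 12.42, 12.21 and 12.36 on the vehicle arrays and 10.81, 11.01 and 10.93 on the 5 µM arrays, a fall of 2.66-fold. EGF was at least 2.61-fold higher, as 1 of 5 tested ligands of its family. Of 17 tested receptor tyrosine kinases 4 were higher, and 3 of the 16 fully measured, among them AXL and MERTK, receptors for GAS6, at 2.46-fold and 2.56-fold. Of 17 feedback inhibitors 3 were higher, with DUSP5, a phosphatase that switches off ERK, at 2.6-fold. FOSB, at least 3.36-fold higher, was the only call among 20 immediate early factors (5.00%), and HES4, a Notch target that rose 4.5-fold, the only call among 14 Notch and Hedgehog genes (7.14%). Both shares were below the 8.6% of all tested genes. Among fully measured members, 0 of 17 immediate early factors and 1 of 13 Notch and Hedgehog genes were higher, beside 4.65% of all such genes.

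Stress genes split within their lists. Of 29 tested genes of the integrated stress response, the program that ATF4 runs when translation is slowed, 7 were higher and none was lower by limma or the methods' t-test. Of the rises 3 were among the 25 fully measured members. The list's median was still -0.38, only 10 differences were positive, and 16 negative ones had an unadjusted p under 0.05. ATF5, a transcription factor of this program, gave 8.34, 8.46 and 7.96 on the vehicle arrays and 10.63, 10.77 and 10.57 on the 5 µM arrays, a rise of 5.29-fold. ALDH1L2, of mitochondrial folate metabolism, was at least 4.69-fold higher, CBS, which makes cystathionine, at least 4.15-fold, and STC2, a secreted stanniocalcin, at least 1.71-fold. FGF21, a metabolic hormone, rose 4.21-fold and NUPR1, a stress chromatin protein, 2.34-fold. The aminoacyl-tRNA synthetases, other targets of that program, had a median of -0.30 over 15 tested members. Limma and the methods' t-test called none of them, and 10 had an unadjusted p under 0.05.

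Folding genes of the endoplasmic reticulum rose in 3 of 20, and in 2 of the 19 fully measured, led by ERO1B, a disulfide oxidase, at 7.41-fold, and CRELD2 at 3.15-fold. Heat shock genes rose in 4 of 15, and in 2 of the 13 fully measured, with HSPA2, a testis HSP70, at 10.7-fold, HSPA1L, another, at 3.15-fold, HSPB1 at 2.09-fold and HSPB8 at least 2.96-fold higher. The ERO1B and HSPA2 values are plain folds with vehicle signal partly below the floor. Of the glycolysis and hypoxia genes 4 of 32 rose (12.5%), and 3 of the 31 fully measured, among them ENO2, the neuronal enolase, at 3.57-fold, and ADM, adrenomedullin, at 2.49-fold. Of 23 cholesterol synthesis genes, all fully measured, 2 rose (8.7%, near the 8.6% of all tested genes and above the 4.65% of fully measured genes). LSS, lanosterol synthase, rose by 2.69-fold and TM7SF2, a sterol reductase, by 2.56-fold.

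Targets of NRF2, the factor for oxidant and drug defence, were lower wherever they were called. AKR1B10, an aldo-keto reductase, gave 11.45, 11.56 and 11.45 on the vehicle arrays and 9.22, 9.44 and 9.42 on the 5 µM arrays, a fall of 4.36-fold (limma adjusted p = 5.52e-05). AKR1C3, its relative, fell 2.25-fold and ALDH3A1 2.85-fold. No member of the 24 tested was called higher by limma or by the methods' t-test, and 2 with a positive difference had an unadjusted p under 0.05.

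Metallothioneins, small proteins that bind zinc and copper, rose in 6 of 9 tested members, all 9 above the floor on all 6 arrays. MT1X gave 9.02, 8.82 and 8.25 on the vehicle arrays and 10.40, 10.52 and 10.43 on the 5 µM arrays, a rise of 3.37-fold, MT1H rose 3.06-fold, MT1F 2.67-fold and MT1G 2.42-fold. Their sequences are nearly the same and all 6 probe sets are marked as shared, so the calls cannot be assigned to separate members, and none remained without such probe sets. Leaving out 0 µM replicate 3 took MT2A to 0.93 and MT1E to 0.91 on the log2 scale. The MT1X promoter (chr16:56682220-56682519, forward strand, RefSeq, GRCh38.p14) is shown as that of the largest called rise of the list, with capitals for TGCGCNC on either strand, the core of the metal response element. It holds 2 matches, as 19.97% of all promoters hold at least 1. The share over the list is void, with 6 of 9 members in the promoter table.
MT1X: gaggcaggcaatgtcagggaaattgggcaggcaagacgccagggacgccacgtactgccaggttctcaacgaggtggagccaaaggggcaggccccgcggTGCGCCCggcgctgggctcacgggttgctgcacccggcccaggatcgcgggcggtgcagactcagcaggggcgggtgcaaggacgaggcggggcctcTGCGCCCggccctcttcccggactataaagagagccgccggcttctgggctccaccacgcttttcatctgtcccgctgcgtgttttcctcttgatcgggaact

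**Figure D5:**
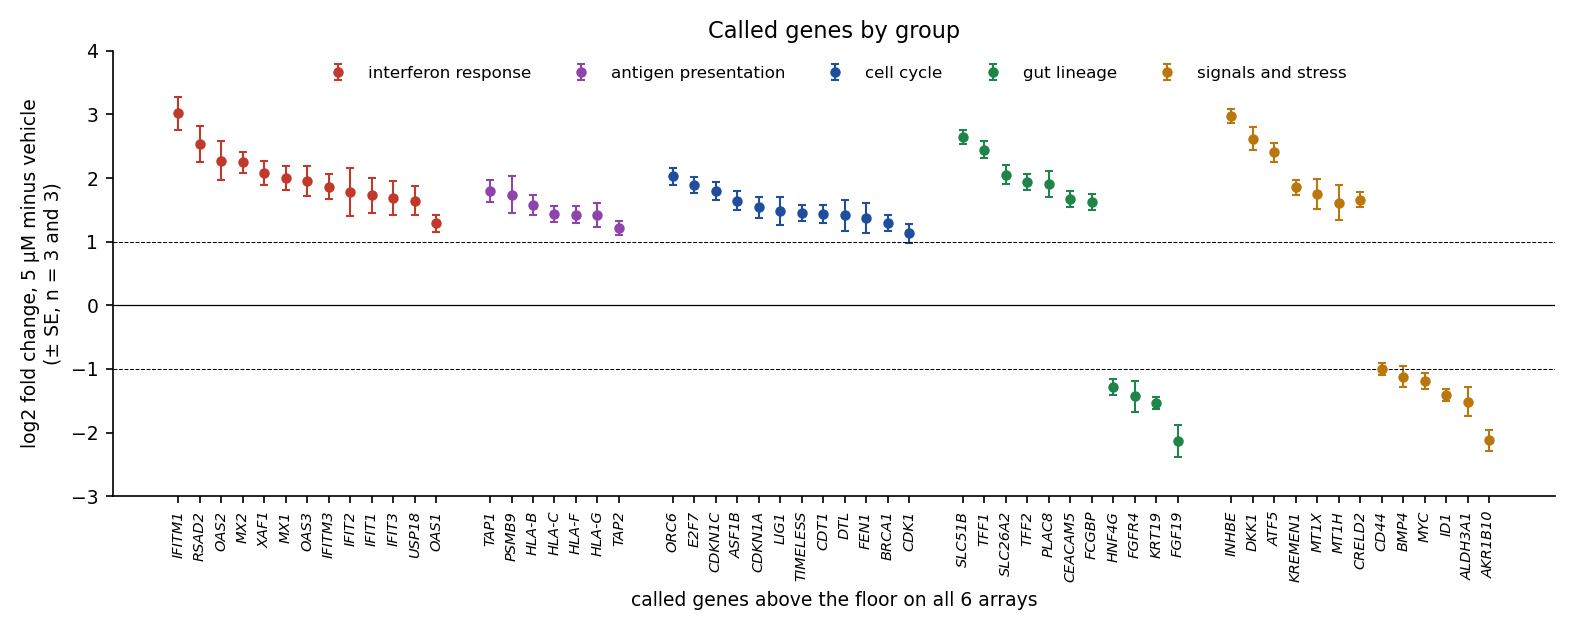
Log2 difference between 5 µM and vehicle (y) for called genes above the floor on all 6 arrays (x), coloured by role. Points are limma estimates from 3 arrays per dose and bars are standard errors; the dashed lines mark 2-fold, and the rises of IFITM1 and DKK1 and the falls of AKR1B10 and FGF19 lie well beyond them.

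Genes of connective tissue were called higher in 11 of 17 tested members (64.7%) and in 5 of the 11 fully measured, and 5 members were tested only through 5 µM. The count rests on probe sets marked as shared, and 1 call remained without them. FN1, fibronectin, gave 2.61, 4.72 and 2.07 on the vehicle arrays and 6.58, 6.78 and 7.19 on the 5 µM arrays, at least 3.25-fold higher. LOX, which crosslinks collagen, was at least 1.35-fold higher, COL6A1 rose 4.49-fold and CAV1, caveolin-1, 3.33-fold. COL1A1 rose 6.42-fold by its brightest probe set, but the other probe set above the floor went from 6.98 to 6.71, so the gene's direction is uncertain. Of 7 fibroblast markers COL1A1 was the only one above the floor, 5 lay below it on all 6 arrays, and the list's summed level ran from 7.39 to 8.19 and from 9.46 to 9.58. Of 10 blood cell markers CD14 and ITGAM were above it at 5 µM, with 5 below it throughout, and their part in these results was not tested.

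Of 12 tested matrix metalloproteases and their TIMP inhibitors 4 were higher, with 6 differences positive and 6 negative, 1 of 6 fully measured members higher and 14 more genes not tested. MMP13, a collagenase, left the background by at least 7.01-fold and MMP1 by at least 2.32-fold, and TIMP1 gave 11.33, 11.31 and 11.45 on the vehicle arrays and 12.92, 12.78 and 13.04 on the 5 µM arrays and rose 2.93-fold. ITGA7, a laminin receptor and 1 of 4 integrins called among 14, was at least 5.56-fold higher and LGALS1, galectin-1, at least 3.95-fold. IGFBP3 was at least 3.65-fold higher, 1 of 2 called among 5 binding proteins. SERPINI1, neuroserpin, rose 9.12-fold with vehicle signal partly below the floor, as 1 of 4 serpins called among 16. None of the 11 fully measured serpins was higher. The kallikreins KLK7 and KLK5, skin proteases, rose 5.56-fold and 4.12-fold, with 4 calls among 11 tested SPINK and kallikrein genes. MUC1, a surface mucin, rose 6.67-fold and MUC15 was at least 2.31-fold higher. Of 10 tested mucins 4 were called higher, and 1 of the 6 fully measured. CLDN10, a claudin that forms ion pores, was at least 4.82-fold higher, as 1 of 2 claudins called among 11, of which 5 had a negative difference.

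Neuronal genes rose in 8 of 20 and fell in 1, and rose in 5 of the 14 fully measured. UCHL1, a neuronal ubiquitin hydrolase, gave 2.65, 3.19 and 2.29 on the vehicle arrays and 8.01, 7.99 and 8.15 on the 5 µM arrays, at least 7.49-fold higher. PRPH, peripherin, rose 8.91-fold, TUBB2B, a tubulin, 3.47-fold, STMN3, a stathmin, 3.1-fold and MAP2, which binds microtubules, 2.82-fold. The PRPH value is a plain fold with vehicle signal partly below the floor. SNCG, gamma-synuclein, fell 2.64-fold. Most of the list, 49 of the 69 genes on the array, was not tested.

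Of 17 tested HOX genes 3 were higher and 8 had a negative difference, with HOXD1 at least 2.42-fold and HOXC10 at least 2.78-fold higher. Of 22 forkhead genes 2 were higher (9.09%), 1 was lower (FOXQ1) and 12 had a negative difference, with FOXJ1, which drives cilia genes, at least 2.15-fold higher. Of 8 SOX genes 2 were higher, with SOX2, a stem cell factor, at least 2.9-fold higher. Histone genes of the replication-dependent clusters rose in 8 of 19, and in 4 of the 15 fully measured, with H4C8 at 3.73-fold, H2BC4 at 3.14-fold and H1-2 at 2.94-fold. They are near copies of each other, so the member is uncertain. Of 16 tested aldehyde dehydrogenases 3 were higher and 2 lower, with a median of -0.13, and ALDH1A3, which makes retinoic acid, rose 5.43-fold. Of 16 glutathione transferases 2 were higher and 12 had a negative difference, with a median of -0.24, and GSTA4 rose 3.86-fold. Of 22 cytochrome P450 genes 6 were higher and CYP4V2 was lower, and 1 of the 15 fully measured was higher. CYP2B6 rose 3.46-fold, and CYP2A6 at 2.9-fold is uncertain beside its copies. AQP3, a water and glycerol channel, rose 2.77-fold, as 1 of 2 aquaporins called among 5. S100A2 rose 4.14-fold, as 1 of 2 S100 genes called among 11, of which 7 had a negative difference.

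Of 319 tested zinc finger genes of the ZNF series, 13 (4.08%) were higher and 4 (1.25%) lower, with a median of 0.01 that was -0.12 after quantile normalization and -0.26 with equal array medians. ZNF304 was at least 2.76-fold higher and ZNF117 rose 5.1-fold, and ZNF488 gave 5.99, 6.22 and 6.84 on the vehicle arrays and 4.36, 2.00 and 1.26 on the 5 µM arrays, a fall to below the floor of at least 1.91-fold. Among 110 long intergenic noncoding RNAs 13 were higher (11.8%) and 3 lower, LINC00992, LINC01234 and LINC00920. Of the 76 fully measured 4 were higher, near the 4.65% of all such genes, led by LINC00513 at 4.53-fold.

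The falls were fewer and smaller and came from bright genes. ANXA13, an annexin of the intestinal epithelium, gave 12.15, 12.12 and 11.85 on the vehicle arrays and 9.69, 9.45 and 9.59 on the 5 µM arrays, a fall of 5.53-fold (limma adjusted p = 4.69e-05). FGF19 gave 9.56, 9.65 and 10.11 on the vehicle arrays and 7.41, 7.69 and 7.83 on the 5 µM arrays, and RARRES1, a membrane protein induced by retinoids, gave 10.67, 10.63 and 10.82 on the vehicle arrays and 8.72, 9.06 and 8.94 on the 5 µM arrays, a fall of 3.49-fold. All 3 were picked among falls with no overlap between the groups.

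POF1B, an actin-binding protein of epithelial junctions, fell 3.49-fold, TPPP3, which bundles microtubules, 3.49-fold, CLEC3A, a lectin, 3.36-fold and GPR39, a zinc receptor, 3.19-fold. KRT19 gave 13.36, 13.40 and 13.32 on the vehicle arrays and 11.85, 11.79 and 11.83 on the 5 µM arrays. MYOM3, a muscle band protein (2.86-fold), ARL15, a small GTPase (2.85-fold), MYRFL (2.84-fold) and CRIP2, a LIM protein (2.83-fold), completed the 15 largest falls. KCNE3, a potassium channel subunit of colon epithelium, gave 11.49, 11.50 and 11.54 on the vehicle arrays and 10.21, 10.19 and 10.18 on the 5 µM arrays, a fall of 2.49-fold, and TRIM31, a gut ubiquitin ligase, fell 2.4-fold. NRP2, a co-receptor for semaphorins, fell to below the floor, by at least 2.24-fold.

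Promoters of RARRES1 (chr3:158732408-158732707, reverse strand) and POF1B (chrX:85379616-85379915, reverse strand), the largest falls that the table held, are given with CG pairs in capitals, as for the MAEL, RBPMS2 and SYCP3 windows (RefSeq, GRCh38.p14). They hold 28 and 4, and the SYCP3 window of a rise held 24. So few windows do not set rises apart from falls. A comparison of CG content over the called genes is void, because the promoter table held 233 of 313 genes called higher from below the floor and 113 of 155 called lower.
RARRES1: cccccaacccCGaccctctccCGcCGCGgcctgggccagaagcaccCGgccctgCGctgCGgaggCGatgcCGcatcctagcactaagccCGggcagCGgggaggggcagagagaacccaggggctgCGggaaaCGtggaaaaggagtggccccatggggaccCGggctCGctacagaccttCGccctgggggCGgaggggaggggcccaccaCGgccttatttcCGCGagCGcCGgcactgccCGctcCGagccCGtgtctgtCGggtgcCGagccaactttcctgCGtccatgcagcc
POF1B: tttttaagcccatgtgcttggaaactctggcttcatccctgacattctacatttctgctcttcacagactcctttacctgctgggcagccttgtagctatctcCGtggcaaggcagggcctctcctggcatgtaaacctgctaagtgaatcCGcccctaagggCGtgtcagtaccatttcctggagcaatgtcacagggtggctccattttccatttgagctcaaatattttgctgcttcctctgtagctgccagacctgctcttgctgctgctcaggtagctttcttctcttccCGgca

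Small shifts in 1 direction were seen in the machinery of protein synthesis. Of 57 tested cytosolic ribosomal protein genes 54 had a lower mean at 5 µM, with a median of -0.39, and RPL3 alone was called, a fall of 2.18-fold. The number with a higher mean went from 3 to 12 after quantile normalization, with a median of -0.09. Of 75 mitochondrial ribosomal protein genes 70 were lower in mean, with a median of -0.30 that was -0.29 after quantile normalization, and MRPL15 was called, a fall of 2.2-fold. The 72 oxidative phosphorylation genes had a median of -0.13, and the 2 called were tissue-restricted subunits that left the background, COX7A1 (at least 1.97-fold) and COX6B2 (at least 2.71-fold).

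Some called genes sat side by side among the tested genes. IFIT2, IFIT3 and IFIT1 were all higher within 104.4 kb of chromosome 10, and OAS1, OAS3 and OAS2 within 104.8 kb of chromosome 12. PSMB8-AS1, TAP1 and PSMB9 were higher within 15.8 kb of chromosome 6, PPM1K, HERC6 and HERC5 within 248.5 kb of chromosome 4, and TYMP, CIMAP1B and KLHDC7B within 25.3 kb of chromosome 22. The longest such run by number was MT2A, MT1E, MT1F, MT1G, MT1H and MT1X, within 75.6 kb of chromosome 16. MIA, CYP2A6, CYP2A7, CYP2B7P and CYP2B6 formed a run of 5 on chromosome 19. The 1 run of falls, SPIN3, FAAH2 and ZXDA, covered 935.3 kb of the X chromosome. Members of the metallothionein and CYP2 runs share probe sequence. By chromosome, the share called higher ran from 3.87% on chromosome 18 to 11.4% on chromosome 6, and the share called lower was highest on the X chromosome, at 3.36%.

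At 10 µM, measured on 3 further cultures, levels were as follows. IGFBP1 had a mean of 10.42 at 5 µM and 8.35 at 10 µM, MAEL 9.60 and 6.72, and IFITM1 12.16 and 10.98. DAZL (8.39 and 3.89), SYCP3 (8.60 and 4.56) and MAGEA4 (7.37 and 2.31) had means below the floor at 10 µM. CCNE2 (7.95 and 7.81), ORC6 (10.31 and 10.22) and BRCA1 (8.89 and 8.88) lay above the floor in mean at both doses. No test between these doses was made.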

How the data were processed

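Total RNA of HT-29 cultures at 0, 5 and 10 µM 5-Aza (3 arrays each) was hybridised to Affymetrix U133 Plus 2.0 arrays, and groups and replicate numbers were taken from the sample titles. The authors deposited log2 signals, for which the submitters' processing notes name RMA and affy 1.14.2. The deposited log2 values have instead the form of MAS 5.0 signals: they are logarithms of multiples of 0.1, with the same trimmed mean on every array. Values of this kind are noisy near the background, which is why the floor and the bounds were used. The titles call the replicates biological, and the paper describes RNA taken separately from each culture. Nothing here says that the cultures were treated on separate occasions, so p-values measure the spread between these cultures of a single line.

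Of 54675 probe sets, 41091 had 1 gene in the platform annotation, 1801 several, 11721 none and 62 were controls, and 6 with a missing value were left out. The brightest probe set stood for each of 19775 genes. Differences were estimated with limma 3.58.1 (R 4.3.3; lmFit and eBayes, 1 mean per dose, all 9 arrays, Benjamini-Hochberg adjustment over 11756 tested genes). Bounds were taken with signals below the floor raised to it. The script was tested on simulated data. Promoters came from the RefSeq table of GRCh38.p14. The arrays carry no read depth, and their number limits the precision.

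Named genes were the targeted and reference genes, the genes assayed by PCR, the 15 largest rises from above and from below the floor, the 15 largest falls and 5 largest falls to below the floor, and up to 8 called members in each direction of each list or family. The largest rises and falls were taken only from called genes whose groups did not overlap. Members and lists were chosen with earlier results of these data known. Alternatives covered the floor, the probe set rule, scaling, the fold rule, moderation, array weights, the actin signal, the replicate block, the methods' t-test and each array left out.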

Additional observations from a re-analysis of the deposited data

How the results depend on the processing

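The counts of called genes were 1011 higher and 155 lower. With equal array medians 443 genes were lower, without a fold threshold 2380 were higher and 1561 lower, and with the actin signal as a covariate 555 were higher. Leaving out each array in turn gave 944 to 1023 higher and 153 to 170 lower. Under the other alternatives, from 703 higher (floor at the 60th percentile) to 1127 (no floor), both counts stayed within 1.5 times. The methods' t-test called 822 and 140 after adjustment, and 973 and 154 at the unadjusted p.

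The GAPDH difference became 0.024 after quantile normalization, NANOS1 -0.635 and EFNA5 0.096 with the mean of a gene's probe sets, and TBX3 -0.026, TBX10 -0.037, LINC02985 -0.111, TNFSF15 -0.224 and PLLP -0.301 with the actin covariate, all of opposite sign to the limma values of the main setting on the log2 scale. The cause was not tested. Over 462 named genes and all alternatives, 9028 of 9843 values kept their direction and side of the threshold. The actin covariate differed from this pool: 270 of the 462 named genes kept both, 186 were no longer called and 5 changed sign, and over all genes 491 of the 1011 rises and 72 of the 155 falls remained called. Among genes called higher from below the floor, the share of promoters rich in CG pairs moved from 53.2% to 41.6% with a limit of 0.75 on the observed over expected ratio. Over all tested genes it moved from 79.3% to 65.5%. This check was void for its coverage.

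The replicate numbers are only numbers, since the deviations of same-numbered arrays at 0 and 5 µM correlated at -0.09, 0.07 and -0.07. With the replicate block 1015 genes were higher and 152 lower. Genes near the floor are limited by signal over background, and 8019 genes were not tested for that reason.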
